A study of Mus musculus with 2 samples.

Results

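The genes described here are 39 genes of the G2 and M phases of the cell cycle, taken from a list of gene symbols, and all 39 were among the 17829 genes of the deposited count matrix. They were followed in 2 single-cell libraries of colonic epithelium of C57BL/6 mice, 1 of genotype Mettl14_WT with 4210 cells and 1 of genotype Mettl14_ KO with 3653 cells, called WT and KO below. Mettl14 works with the methyltransferase Mettl3, which adds N6-methyladenosine to messenger RNA. Both libraries held live cells sorted for the epithelial surface protein EpCAM and used 10x Genomics 3' chemistry, in which each counted molecule carries a unique molecular identifier (UMI). The series text gives an age or time of 2 weeks without saying which, and the labels name neither the promoter that drove the deletion, the deleted exons nor the number of animals behind a library. With 1 library per genotype no test could be run. Every interval below therefore covers counting error only and not the spread between animals or preparations. Intervals of levels and ratios also leave out the spread between cells, since they treat UMIs of the same cell as independent.

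A dividing cell enters mitosis when cyclin B, bound to the kinase Cdk1, is switched on. Chromosomes are then condensed, attached through their kinetochores to the spindle and checked for attachment. The anaphase-promoting complex (APC/C) with its activator Cdc20 next marks cyclin B for destruction and lets the chromatids part. Many of the genes involved are transcribed together late in the cycle, from promoters that often hold a CHR element and CCAAT boxes. In the colon such cells sit in the lower crypt, among stem cells and their early progeny.

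The WT library held 60205658 UMIs, with a median of 12094 per cell, and the KO library 37635762, with a median of 9119. Mettl14 stood at 10.5 CPM (UMIs of a gene scaled to a common total, 95% interval 9.69 to 11.3) in WT. In KO it stood at 5.34 CPM (4.63 to 6.13). As a check this is partial, since 3' tags may lie outside a deleted part. Mettl3, which the genotype does not name, was lower as well, at 13.3 CPM (12.4 to 14.2) in WT and 7.49 CPM (6.64 to 8.42) in KO. The lower level was thus not particular to Mettl14. The libraries shared 2 cell barcodes. Both held cells with Xist and cells with Y-linked transcripts, so both held cells of either sex. The authors' 7 clusters are called by their numbers, since cluster 0, which a pancreatic enzyme list led with an S phase list next, was not given a name. Goblet markers led clusters 1 and 2, the 39 genes and S phase genes led cluster 3, and colonocyte markers led cluster 4. Enteroendocrine markers led cluster 5. Stromal markers led cluster 6, with tuft markers almost level. Cluster 6 held 117 WT and 31 KO cells and was not compared, being under the minimum of 50 cells in a library.

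Cluster 3 held most of the signal. It contained 918 WT and 890 KO cells, and 70.8% of all UMIs of the 39 genes in WT and 68.6% in KO. By gene, that share ran in WT from 49.7% for Anp32e, a histone chaperone, to 89.0% for Nusap1, a protein that bundles spindle microtubules. In KO the same genes marked the ends, at 53.4% and 88.8%. The clustering had used these cells' own counts, so the height of the genes in cluster 3 describes how the cluster was built and is not a test. The median cell of cluster 3, thinned to 3000 UMIs, held a UMI of 12 of the 39 genes in each library, against 2 in all WT cells and 3 in all KO cells.

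**Figure D1:**
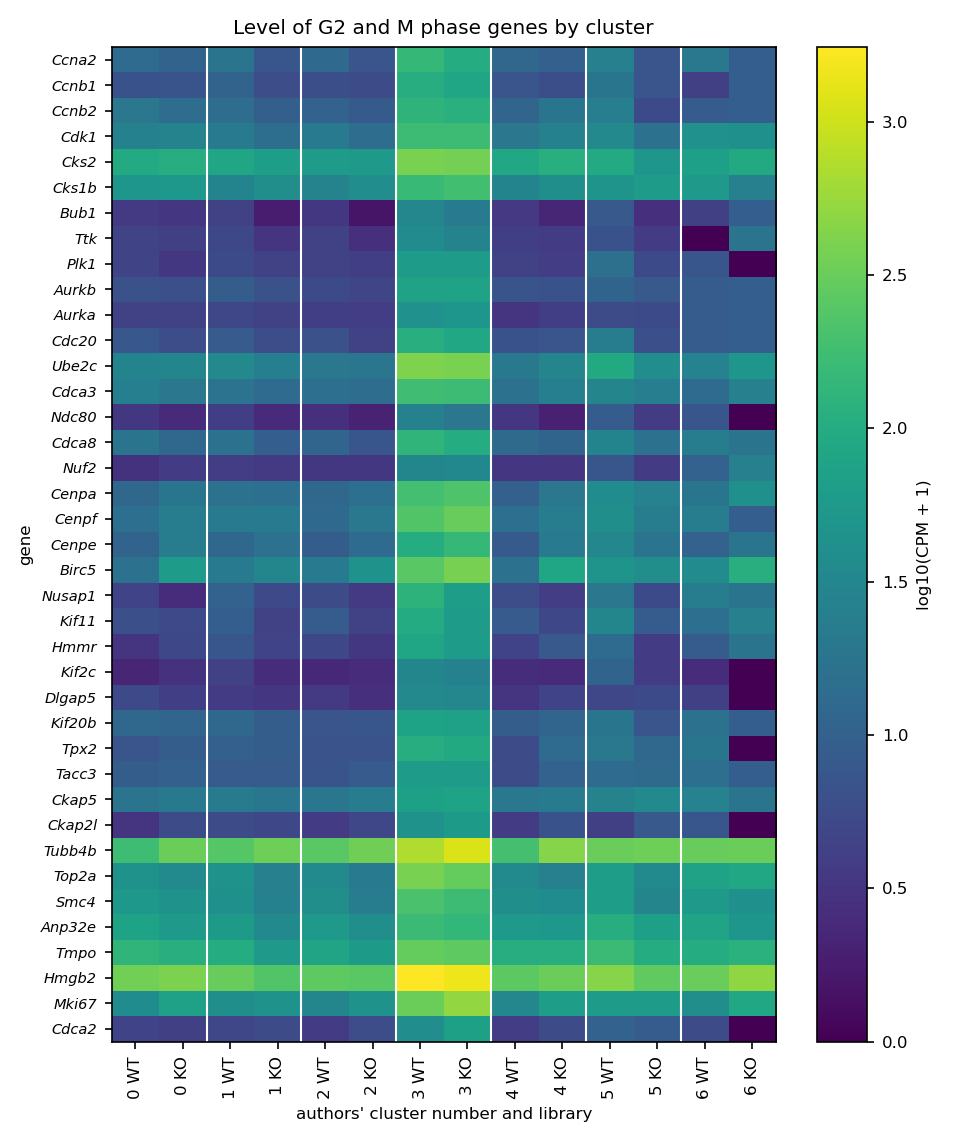
Level of each of the 39 genes as log10(CPM + 1), shown by colour, in each cluster and library (columns), with genes in rows ordered by role. Cluster 3 is the brightest column pair, and it held 70.8% of the UMIs of these genes in WT and 68.6% in KO.

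The summed level of the 39 genes was nearly equal in the libraries, at 2997 CPM in WT and 3046 CPM in KO, a log2 ratio of KO over WT of 0.023 (0.012 to 0.034). In cluster 3 the sum was 7598 CPM in WT and 7712 CPM in KO (log2 ratio 0.022, 0.0087 to 0.034). Inside cluster 3 the log2 ratio was −0.035 (−0.049 to −0.020) in its G2/M-high cells, defined below, and 0.25 (0.22 to 0.27) in the rest. The genes that define G2/M-high cells were themselves lower in KO in cluster 3 (log2 ratio −0.13, −0.16 to −0.11). The sign of the small difference in the sum of the 39 genes turned under other scalings, both over all cells and in cluster 3. With totals that leave out mitochondrial, ribosomal protein and haemoglobin genes the log2 ratio was −0.047 over all cells and −0.053 in cluster 3.

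To count cells in G2 or M without using the 39 genes, cells were scored on 46 other mitotic genes, such as Bub1b, Kif23 and Foxm1. After each cell was thinned to 3000 UMIs, those with at least 5 UMIs of these genes were called G2/M-high. They made up 16.4% of WT cells (663 of 4038, exact Clopper-Pearson interval 15.3 to 17.6) and 16.8% of KO cells (599 of 3556, 15.6 to 18.1). The 2 intervals overlap over nearly their whole width. The 46 genes were themselves lower in KO over all cells, at 869 CPM in WT and 776 CPM in KO (log2 ratio −0.16, −0.18 to −0.14). A fixed threshold on them may therefore select unlike cells in the libraries, which was not tested. The threshold cuts a continuous score, with 106 WT and 125 KO cells at it and 128 and 153 cells 1 UMI below, so these cells are a range and not a type. Thinning left out 172 WT and 97 KO cells that were shallower. With the threshold at 3 UMIs the shares were 23.7% in WT and 25.6% in KO, and at 8 UMIs 9.48% and 8.55%, so which library was ahead depended on the threshold.

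**Figure D2:**
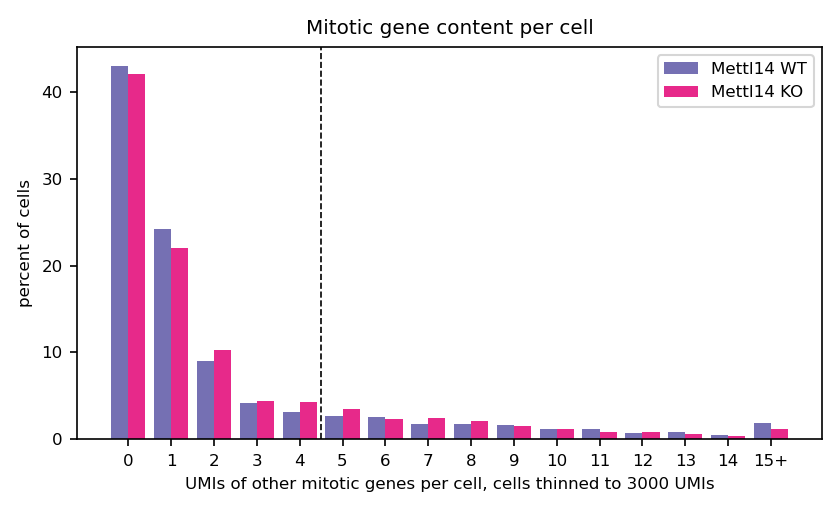
Percent of cells (vertical axis) by UMIs of 46 other mitotic genes per cell after thinning to 3000 UMIs (horizontal axis, last bar 15 or more), for the WT and KO libraries. The dashed line marks the threshold of 5 UMIs, above which lay 16.4% of WT and 16.8% of KO cells.

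Within cluster 3 the G2/M-high share was 64.0% in WT (60.8 to 67.1) and 60.9% in KO (57.6 to 64.1). Of the other compared clusters, none exceeded 5.15%, the share in cluster 5 of WT. In the G2/M-high cells the 39 genes summed to 8884 CPM in WT and 8813 CPM in KO (log2 ratio −0.012, −0.026 to 0.0026). The G2/M-high cells differed in depth more than the rest of the libraries did. Their median was 17007 UMIs in WT and 10525 in KO, against 11425 and 8671 in cells with no UMI of the 46 genes after thinning. Relative to the latter, G2/M-high cells thus held 1.49 times as many UMIs in WT and 1.21 times as many in KO.

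Beneath that equal sum, single genes differed in both directions. A gene is called higher or lower here when the libraries differed at least 1.5-fold and equal levels lay outside the interval, among genes with at least 50 UMIs over both libraries, which all 39 had over all cells. Over all cells 4 genes were higher in KO, namely Cdca2, Birc5, Tubb4b and Mki67, and 4 were lower, namely Nusap1, Kif11, Bub1 and Ndc80, while 31 were neither. Over all 13334 genes measured, 16.7% were higher and 16.2% lower by the same rule, so the share of the 39 called was below the background in each direction. The median log2 ratio was −0.12 over the 39 genes and −0.04 over all measured genes. Of the 39 ratios 26 were below 0 and 13 above, with 22 intervals wholly below 0 and 10 wholly above. Over all measured genes 7103 were below 0 and 6231 above. Just outside the limit of 1.5-fold lay Ccna2 at 1.49-fold lower and Cenpe at 1.46-fold higher, and just inside it lay Ndc80 at 1.502-fold lower.

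**Figure D3:**
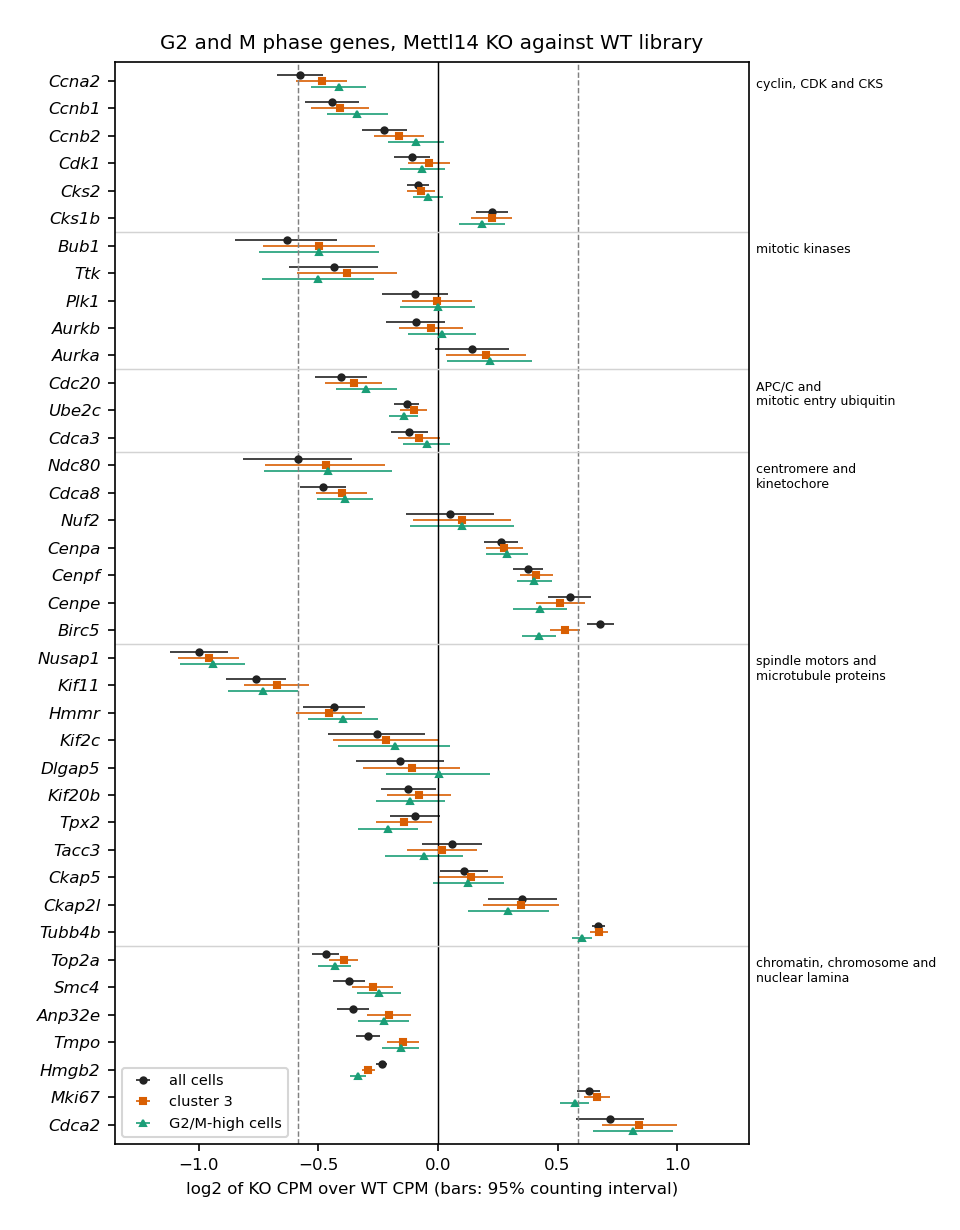
Log2 of KO over WT CPM (horizontal axis, 95% counting interval as bars) for each of the 39 genes (rows, grouped by role), over all cells, in cluster 3 and in G2/M-high cells. Dashed lines mark 1.5-fold. Nusap1 and Kif11 lie past it on the lower side and Cdca2 and Tubb4b on the higher side in all 3 sets of cells.

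Cyclins, Cdk1 and its small Cks partners were led by lower values. Cdk1, the kinase of mitotic entry, had 63.5 CPM in WT and 58.9 CPM in KO, a log2 ratio of −0.11 (−0.19 to −0.03). Ccna2, cyclin A, which acts from S phase into early mitosis, had 49.2 CPM in WT and 33.0 CPM in KO (log2 ratio −0.58, −0.67 to −0.48). Ccnb1, the main cyclin of mitotic entry, had 34.2 and 25.2 CPM (−0.44, −0.55 to −0.33). Cyclin B2, encoded by Ccnb2, had 44.9 and 38.4 CPM (−0.22). None of the 6 genes of this group was called, 5 of the 6 ratios were below 0, and Cks1b alone was above it (69.1 and 80.7 CPM, 0.23). Its relative Cks2 had 166 and 157 CPM (−0.083).

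Among 5 mitotic kinases, Bub1, a kinase of the spindle checkpoint, had 10.5 CPM in WT and 6.75 CPM in KO (log2 ratio −0.63, −0.85 to −0.42). Ttk, the checkpoint kinase also called Mps1, had 12.4 and 9.14 CPM (−0.44, −0.62 to −0.25). Plk1, which drives entry and spindle assembly, stood at 19.4 and 18.1 CPM, with an interval that spans equal levels (−0.23 to 0.04). The same held for Aurkb, the kinase of the centromere complex (24.9 and 23.3 CPM, −0.22 to 0.028), and Aurka, the kinase of spindle poles (14.2 and 15.7 CPM, −0.012 to 0.29). Bub1 was thus the only kinase called, and it was not called in cluster 3 or in G2/M-high cells.

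The APC/C group has 3 genes. Ube2c, the ubiquitin-conjugating enzyme that works with the complex, had 136 CPM in WT and 124 CPM in KO (log2 ratio −0.13, −0.18 to −0.08). Cdc20, its activator, had 35.0 and 26.4 CPM (−0.41, −0.52 to −0.30). Cdca3, which takes part in the degradation of the entry inhibitor Wee1, had 62.0 and 57.0 CPM (−0.12). All 3 ratios were below 0 and none was called.

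Centromere and kinetochore genes split. Birc5, which encodes survivin, the subunit that brings Aurora B to centromeres, had 86.6 CPM in WT and 139 CPM in KO, 1.60-fold higher (log2 ratio 0.68, 0.62 to 0.73). Cenpe, a kinetochore motor, had 35.3 and 51.7 CPM (0.55, 0.46 to 0.64). Cenpf, a large kinetochore protein, had 75.7 and 98.3 CPM (0.38), and Cenpa, the centromeric histone, 60.8 and 72.9 CPM (0.26). Against these 4 stood Cdca8, borealin, a partner of survivin in the same complex, with 47.2 and 33.9 CPM (−0.48, −0.58 to −0.38). Ndc80, the microtubule-binding kinetochore subunit, had 9.02 and 6.00 CPM (−0.59, −0.82 to −0.36), while its partner Nuf2 had 10.1 and 10.5 CPM (−0.14 to 0.24). Of these genes Birc5 was called higher and Ndc80 lower, and subunits of a single complex did not share a direction.

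The 11 spindle motors and microtubule proteins held the lowest ratio of the 39. Nusap1 had 38.8 CPM in WT and 19.4 CPM in KO, with an interval of the log2 ratio of −1.12 to −0.88. Kif11, the motor that pushes spindle poles apart, had 32.7 and 19.3 CPM, 1.69-fold lower (−0.76, −0.88 to −0.64). Tubb4b, a beta-tubulin that also forms microtubules outside mitosis, had 356 and 567 CPM, 1.59-fold higher (0.67, 0.64 to 0.70). The spindle assembly factors Tpx2 (33.6 and 31.4 CPM), Tacc3 (21.7 and 22.6 CPM) and Dlgap5 (11.4 and 10.2 CPM) had intervals that span equal levels. Hmmr, a spindle-associated hyaluronan receptor, had 26.1 and 19.3 CPM (−0.43), and Ckap2l, a spindle protein, 14.6 and 18.7 CPM (0.35). Small differences were seen for the motors Kif2c (9.73 and 8.16 CPM, −0.25) and Kif20b (27.8 and 25.5 CPM, −0.12) and for the microtubule polymerase Ckap5 (32.7 and 35.3 CPM, 0.11).

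Of 7 genes of chromatin, chromosomes and the nuclear lamina, Cdca2, which recruits a phosphatase to chromatin as mitosis ends, had 13.3 CPM in WT and 21.8 CPM in KO, 1.65-fold higher (log2 ratio 0.72, 0.58 to 0.86). Mki67, the proliferation antigen that coats mitotic chromosomes, had 117 and 182 CPM (0.63, 0.58 to 0.68). Hmgb2, a chromatin protein and the gene of the 39 with the most UMIs, had 714 and 607 CPM (−0.24, −0.26 to −0.21). Top2a, the topoisomerase that untangles chromatids, had 139 and 100 CPM (−0.47, −0.53 to −0.41). Smc4, a condensin subunit, had 89.0 and 68.8 CPM (−0.37), Anp32e 91.6 and 71.6 CPM (−0.35) and Tmpo, a lamina protein, 162 and 132 CPM (−0.29). Apart from Mki67 and Cdca2 the group was lower in KO, with no gene called lower.

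For 7 genes the annotation places another coding gene on the opposite strand over part of the locus: Nusap1 with Oip5, Ube2c with Tnnc2, Tacc3 with Tmem129, Tubb4b with Fam166a, Cdc20 with Elovl1, Cdca8 with 9930104L06Rik and Ccna2 with Exosc9. Named pseudogene copies exist for Ccnb1 (1), Ccnb2 (1) and Tubb4b (2). Whether the counting used strand is not given in the sources used here, so the values of these genes are less certain than those of Birc5, Mki67, Kif11 or Cdca2, which had neither.

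Within cluster 3, 5 of the 8 genes were called again, and Birc5 (log2 ratio 0.53), Bub1 (−0.50) and Ndc80 (−0.47) were short of the limit. All 39 genes had the same direction there as over all cells, which share those cells. Cdca2 (38.5 CPM in WT, 69.1 CPM in KO, log2 ratio 0.84), Tubb4b (712 and 1135 CPM, 0.67) and Mki67 (329 and 521 CPM, 0.66) were higher. Nusap1 (124 and 63.6 CPM, −0.96) and Kif11 (96.7 and 60.6 CPM, −0.67) were lower. Over 11170 genes measured in cluster 3, 17.5% were higher and 11.7% lower, again more than among the 39. The median log2 ratio was −0.10 over the 39 genes and 0.03 over all genes there.

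In the G2/M-high cells, chosen without the 39 genes, 2 were higher and 2 lower, against 17.4% and 11.4% of 10740 measured genes. Cdca2 had 48.0 CPM in WT and 84.5 CPM in KO (log2 ratio 0.82, 0.65 to 0.98), and Tubb4b 816 and 1238 CPM (0.60, 0.56 to 0.64). Nusap1 had 157 and 81.6 CPM (−0.94, −1.08 to −0.81), and Kif11 120 and 72.1 CPM (−0.73, −0.88 to −0.59). Mki67 stood just short of the limit, with 389 and 578 CPM (0.57). Birc5 was closer to equal here than over all cells, with 306 and 410 CPM (0.42, 0.35 to 0.49). The 46 genes used to choose these cells were themselves not equal in them, at 2749 CPM in WT and 2525 CPM in KO (−0.12, −0.15 to −0.096).

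Some marker lists of cell types differed as well in these cells. Stem markers summed to 1346 CPM in WT and 1264 CPM in KO, and colonocyte markers to 1459 and 1548 CPM. Tuft markers summed to 3.33 and 4.37 CPM, and epithelial markers to 5081 and 4080 CPM. In G2/M-high cells the 11 immune markers summed to 49.9 CPM in WT and 91.5 CPM in KO, with 2 genes at 0 in each library. The 10 stromal markers summed to 90.04 and 20.4 CPM (0 and 2 genes at 0), and the 12 enteroendocrine markers to 109 and 26.9 CPM (2 at 0 in each). For 11 pancreatic enzyme genes the sums were 425 and 127 CPM (0 and 7 at 0), and for 12 goblet markers 7295 and 5485 CPM (none at 0 in either library). Over all of cluster 3, which held 576 of 663 WT and 534 of 599 KO G2/M-high cells, the enteroendocrine sums were 5.53 and 5.59 CPM. Pancreatic enzyme sums there were 109 and 127 CPM, stromal 15.0 and 4.22, immune 44.3 and 87.6, and goblet 6797 and 5286. The enteroendocrine and pancreatic enzyme gaps were thus not seen in that cluster as a whole. The part of these markers in the differences among the 39 genes was not tested.

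The sexes of the cells were also mixed unequally. Cells with a Y-linked and no Xist UMI were 36.6% of WT and 27.3% of KO cells, and their G2/M-high shares were 15.1% and 19.9%. In cells with at least 3 Xist UMIs and none Y-linked the shares were 17.0% in WT and 15.3% in KO. Whether the 2 sets of cells differ in this was not tested. Restricted to the Y-linked cells, 0 of the 39 genes were lower and 5 higher, against 13.2% and 14.6% of all genes measured in them. Nusap1 had a log2 ratio of −0.48 (−0.69 to −0.28), Kif11 −0.48 (−0.71 to −0.25), Bub1 −0.06 (−0.43 to 0.29) and Ndc80 −0.23 (−0.66 to 0.18). Restricted to the cells with Xist, 9 were lower and 2 higher, against 15.5% and 16.9% of all genes, with Nusap1 at −1.34 (−1.54 to −1.15). Within cluster 3 both subsets had Nusap1 and Kif11 called lower and Cdca2 called higher. The intervals of Nusap1 over all cells do not overlap between the subsets, but they leave out the spread between cells and animals. Whether the size of its difference depends on this split was not tested. Over all cells none of Nusap1, Kif11, Bub1 and Ndc80 was called in the cells without Xist. Cells with UMIs of both kinds, as doublets or free RNA can give, were 10.4% of WT and 8.32% of KO cells.

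Outside cluster 3 levels were low and the clusters did not share a direction. In cluster 4, led by colonocyte markers, the 39 genes summed to 1072 CPM in WT and 1572 CPM in KO (log2 ratio 0.55, 0.51 to 0.60). Of 31 measured there, 12 were higher and 1 lower, against 16.0% and 12.7% of 10306 genes. The higher ones included 9 of 13 measured genes of the late set, whose transcripts peak in mitosis, and 3 of 18 others. Birc5 had 15.2 CPM in WT and 80.9 CPM in KO, 5.32-fold higher (log2 ratio 2.41, 2.14 to 2.69). Cenpe had 7.24 and 19.8 CPM (1.45), Tpx2 4.59 and 12.5 CPM (1.45), Tubb4b 193 and 449 CPM (1.22) and Mki67 30.9 and 63.5 CPM (1.04). Kif11, with 7.65 and 4.04 CPM (−0.92, −1.71 to −0.19), was the 1 lower. Without the 22 WT and 13 KO cells that were G2/M-high the summed ratio was 0.60, so these cells did not carry it. The sum weighs genes by level, and Tubb4b, which also forms microtubules outside mitosis, moved it most. A wider list of 93 other mitotic genes, described below, had 8 higher and 6 lower of 66 measured in cluster 4. Their summed log2 ratio there was 0.084 (0.047 to 0.12).

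In cluster 5, led by enteroendocrine markers, the sum was 2013 CPM in WT and 1372 CPM in KO (log2 ratio −0.55, −0.64 to −0.46). Of 18 measured there, 0 were higher and 10 lower, against 14.9% and 9.76% of 6288 genes. Among the lower ones were Ube2c (91.5 and 37.7 CPM, −1.28), Smc4 (63.9 and 28.9 CPM, −1.14) and Cdk1 (33.1 and 15.8 CPM, −1.07). This cluster held 99 WT and 151 KO cells, of which 5 and 4 were G2/M-high. Without those few cells the summed ratio was −0.086 (−0.20 to 0.02), so the difference rested on them.

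**Figure D4:**
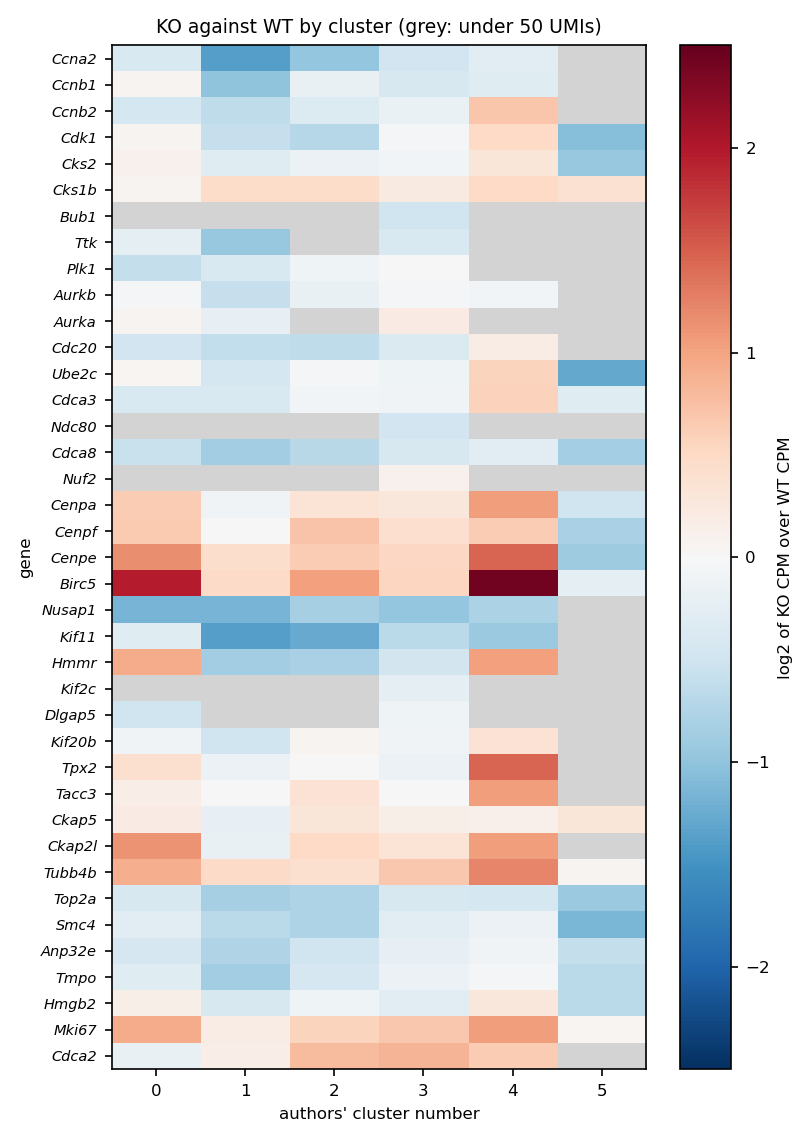
Log2 of KO over WT CPM (colour, red higher in KO, blue lower) for each of the 39 genes (rows) in clusters 0 to 5 (columns), with genes under 50 UMIs in grey. In cluster 4, 12 of 31 measured genes were called higher, and in cluster 5, 10 of 18 were called lower.

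In cluster 0 the sum was 1293 CPM in WT and 1518 CPM in KO (log2 ratio 0.23), with 8 of 35 measured genes higher and 1 lower against 19.9% and 12.9% of 10782 genes. Birc5 led again, with 15.004 and 58.6 CPM (1.97). Enzyme-rich cells, those with at least 1% of UMIs from the pancreatic enzyme list, were found in WT (33 cells) and not in KO (0 cells). Over all cells the summed ratio stayed within its interval without them. The ratio of cluster 0 itself was not recomputed without them. The goblet marker clusters differed from each other in the counts of calls. Cluster 1 had 1257 and 1104 CPM (−0.19), with 0 of 34 higher and 13 lower against 13.1% and 16.8% of 10329 genes, led by Ccna2 at 16.8 and 6.42 CPM (−1.38). Without its G2/M-high cells the summed log2 ratio of cluster 1 was −0.071. Cluster 2 had 1091 and 1117 CPM (0.034; 0.15 without its G2/M-high cells), with 3 of 32 higher and 6 lower against 14.4% and 16.7% of 10177 genes.

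The direction of 8 genes, picked after their values were seen, was also followed across clusters. They are not the 8 called genes. Cdca2, Bub1 and Ndc80 are left out, and Ccna2, Top2a and Cenpe, not called over all cells, are included. A shared direction among genes picked this way is not a test. Cdca2, called higher over all cells, did not keep that direction. Its ratio was below 0 in cluster 0, which held 5.76% of its UMIs in WT and 2.68% in KO. Kif11, Nusap1, Ccna2 and Top2a all had ratios below 0 in each of clusters 0 to 5, though in cluster 5 all of these but Top2a had under 50 UMIs. Birc5, Mki67, Tubb4b and Cenpe all had ratios above 0 in each of clusters 0 to 4, and 2 of these 4 did in cluster 5.

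**Figure D5:**
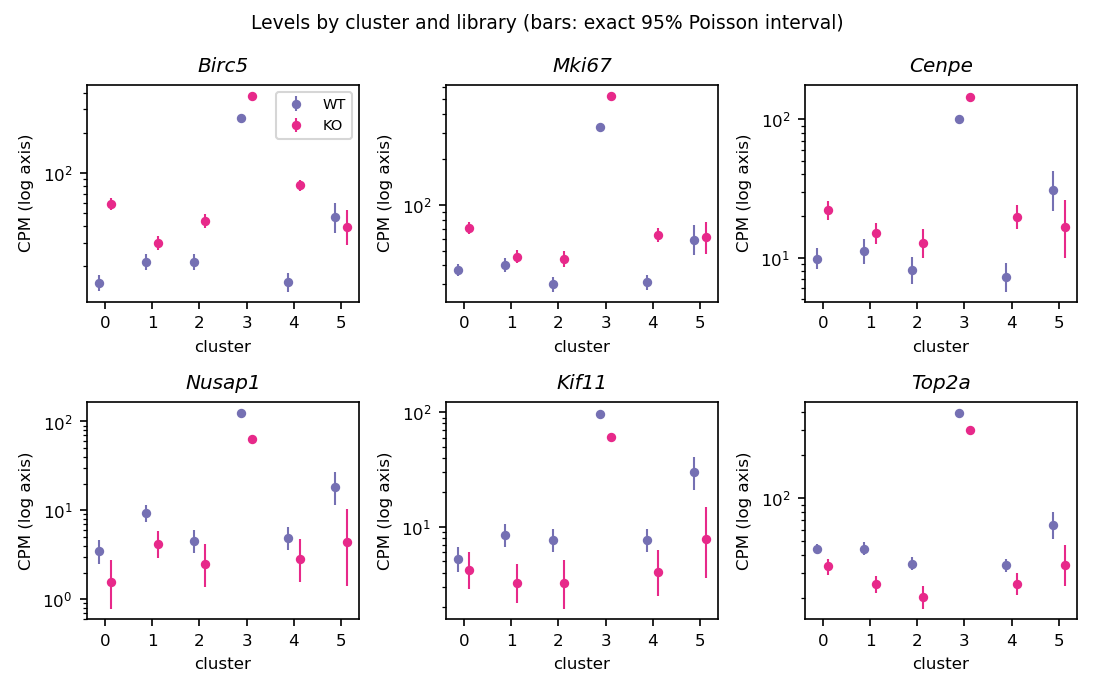
CPM on a log axis with exact 95% Poisson intervals for Birc5, Mki67, Cenpe, Nusap1, Kif11 and Top2a in clusters 0 to 5 of the WT and KO libraries. The gap for Birc5 is widest in cluster 4, at 15.2 against 80.9 CPM, and for Nusap1, Kif11 and Top2a the KO point is the lower one in every cluster.

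The cells with no UMI of the 46 other mitotic genes, after thinning, numbered 1738 in WT and 1496 in KO. Before thinning the same cells held the 46 genes at 144 CPM in WT and 124 CPM in KO, so they were not free of these transcripts. In these cells the 39 genes summed to 822 CPM in WT and 917 CPM in KO (log2 ratio 0.16, 0.13 to 0.19), from unthinned counts. Of 28 measured, 4 were higher and 8 lower, against 15.5% and 15.8% of 11827 genes. Birc5 had 162 UMIs in WT and 391 in KO, which is 7.203 and 27.1 CPM, 3.76-fold higher (log2 ratio 1.91, 1.64 to 2.18). Cenpe had 4.67 and 11.8 CPM (1.34), Mki67 16.6 and 28.1 CPM (0.75) and Tubb4b 194 and 312 CPM (0.68). On the other side Ccna2 had 4.002 and 1.18 CPM (−1.76, −2.61 to −1.01), on 90 and 17 UMIs. The others lower there were Kif11 (−1.27), Ccnb1 (−1.23), Cdc20 (−1.04), Cdca8 (−1.03), Ccnb2 (−1.03), Cdca3 (−0.82) and Top2a (−0.65).

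The share of such cells with a Birc5 UMI is given here for clusters 4 and 5 only. As given above, Birc5 had ratios above 0 in each of clusters 0 to 4, so that direction was not particular to cluster 4. Among cells with none of the 46 genes after thinning, 17 of 351 WT cells of cluster 4 had a Birc5 UMI in unthinned counts (4.84%, exact interval 2.85 to 7.64). So did 45 of 228 KO cells (19.7%, 14.8 to 25.5), and the median depths were 12014 and 8458 UMIs. In cluster 5, led by enteroendocrine markers, 2 of 49 WT cells (4.08%, 0.50 to 14.0) and 5 of 98 KO cells (5.10%, 1.68 to 11.5) had one, at 7423 and 5241 UMIs. With each cell thinned to 3000 UMIs the shares in cluster 4 were 2.56% (1.18 to 4.81) in WT and 10.5% (6.86 to 15.3) in KO. In cluster 5 they were 0 of 49 WT cells and 2.04% (0.25 to 7.18) of KO cells. For the 0, a limit of 3 cells in 49 allows a share of up to 6.12%, which is not an exact interval. The thinned KO intervals of clusters 4 and 5 overlap. The difference between the clusters and the part of free RNA in it were not tested. The Birc5 share was also taken over all cells with none of the 46 genes after thinning to 3000 UMIs. In thinned counts it was 1.956% (1.36 to 2.72) in WT and 5.75% (4.62 to 7.05) in KO, against 6.27% and 12.8% unthinned.

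Other cell cycle genes were read from 3 lists of genes outside the 39, which share Ccne1, Ccne2 and E2f8 among themselves. Over all cells the shares of all 13334 measured genes were, as above, 16.7% higher and 16.2% lower. Of 93 other mitotic genes, all measured over all cells, 3 were higher and 10 lower, with a median log2 ratio of −0.27. Cdc26, an APC/C subunit, had 90.2 CPM in WT and 142 CPM in KO (0.65). Wee1, the kinase that holds Cdk1 inactive, had 35.0 and 16.8 CPM (−1.06), and Lbr, a receptor of the nuclear membrane, 80.7 and 49.8 CPM (−0.70). All 7 condensin genes of this list had intervals below equal levels and none was called, with a median of −0.39. Foxm1, a transcription factor of G2 and M genes, had 7.08 and 10.6 CPM (0.59, 0.39 to 0.79).

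Of 44 S phase genes, 1 was higher and 12 lower, against 16.7% and 16.2% of all measured genes, with a median of −0.39. The higher one was Fen1, the flap nuclease of lagging-strand synthesis, with 22.3 CPM in WT and 55.8 CPM in KO (1.323). Pcna, the replication clamp, had 85.9 and 49.6 CPM (−0.79), and Cdca7, a chromatin regulator of S phase, 76.3 and 35.8 CPM (−1.09). Both medians lay further below 0 than that of the 39 genes. Among 14 measured CDK inhibitors and cyclins of G1, 3 were higher and 3 lower, against the same shares of all measured genes. Cdkn1a, the inhibitor p21, had 48.7 and 131 CPM over all cells (1.42, 1.36 to 1.49), with a log2 ratio of 1.73 in G2/M-high cells. Ccnd2, cyclin D2, had 275 and 565 CPM (1.04), and Cdkn2c, the inhibitor p18, 9.32 and 4.09 CPM (−1.19).

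Promoters were looked at because the 39 genes are transcribed together yet differed in direction. Of the 39, 33 had an entry in the RefSeq promoter table of build GRCm38.p6, and Tpx2, Smc4, Aurkb, Cdca2, Dlgap5 and Ccna2 did not. The 250 bases before the start site were searched on both strands for the CHR element (TTTGAA or TTTAAA) and the CCAAT box (CCAAT). A CHR word and a CCAAT word can share no more than an end base. A CHR word was found in 20 of 33 (60.6%), against 25.5% of all 27025 promoters, and at least 2 CCAAT words in 22 of 33 (66.7%), against 10.5%. Both kinds occurred in 18 of 33 (54.5%), against 8.995%. Of the higher genes 3 of 3 with an entry held a CHR word, and of the lower genes 1 of 4. These are matches of letters, not sites shown to be used, and the groups are too small for a comparison. The bases nearest the start site follow, 5′ to 3′ on the gene's strand, with CHR and CCAAT words of either strand in capitals. Cdk1, Ccnb1, Cdc20 and Top2a show the common layout, Mki67, Tubb4b and Birc5 are higher genes, and Kif11 and Nusap1 are lower genes.
Cdk1 (chr10:69352913-69353062, minus strand): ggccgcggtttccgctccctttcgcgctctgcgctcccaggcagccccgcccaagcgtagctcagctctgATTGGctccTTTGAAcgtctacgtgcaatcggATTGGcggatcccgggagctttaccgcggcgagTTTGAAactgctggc
Ccnb1 (chr13:100786487-100786636, minus strand): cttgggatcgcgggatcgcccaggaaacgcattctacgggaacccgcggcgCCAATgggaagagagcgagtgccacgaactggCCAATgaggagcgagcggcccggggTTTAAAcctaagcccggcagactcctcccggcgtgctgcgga
Cdc20 (chr4:118437344-118437493, minus strand): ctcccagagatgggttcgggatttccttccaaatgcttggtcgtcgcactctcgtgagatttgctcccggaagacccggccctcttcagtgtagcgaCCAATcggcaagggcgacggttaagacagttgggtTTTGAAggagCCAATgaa
Top2a (chr11:99024190-99024339, minus strand): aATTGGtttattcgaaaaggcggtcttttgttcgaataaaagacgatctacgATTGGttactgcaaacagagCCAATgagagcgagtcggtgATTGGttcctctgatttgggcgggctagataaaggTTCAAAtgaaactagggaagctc
Mki67 (chr7:135716380-135716529, minus strand): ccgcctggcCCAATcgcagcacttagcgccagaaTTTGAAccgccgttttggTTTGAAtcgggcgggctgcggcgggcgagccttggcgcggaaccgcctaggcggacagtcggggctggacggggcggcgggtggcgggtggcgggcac
Tubb4b (chr2:25224703-25224852, minus strand): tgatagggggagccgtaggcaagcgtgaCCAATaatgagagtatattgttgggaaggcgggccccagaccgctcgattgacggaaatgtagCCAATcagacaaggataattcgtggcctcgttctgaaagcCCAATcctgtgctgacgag
Birc5 (chr11:117849087-117849236, plus strand): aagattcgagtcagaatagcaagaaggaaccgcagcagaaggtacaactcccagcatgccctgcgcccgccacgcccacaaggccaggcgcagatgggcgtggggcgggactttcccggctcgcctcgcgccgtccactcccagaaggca
Kif11 (chr19:37376232-37376381, plus strand): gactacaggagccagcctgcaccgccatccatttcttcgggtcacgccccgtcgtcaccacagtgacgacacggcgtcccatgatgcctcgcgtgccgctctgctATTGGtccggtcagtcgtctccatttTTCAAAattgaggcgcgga
Nusap1 (chr2:119618148-119618297, plus strand): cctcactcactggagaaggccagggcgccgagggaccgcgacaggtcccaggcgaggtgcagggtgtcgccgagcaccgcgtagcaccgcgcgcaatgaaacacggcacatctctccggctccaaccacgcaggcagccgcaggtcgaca
Nusap1 shows neither word in these bases or in the rest of the window, and the TTTAAA of Birc5 and the CHR word of Tubb4b lie further upstream than the bases printed. Kif11, called lower, has both words near its start, as does Cdk1, whose levels in the libraries were close to equal.

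Gene structure varied among the 39. Their transcripts ran from 692 bases for Cks2 to 11130 for Cenpf and had a median length of 2965 bases, near the 3084.5 of all measured coding genes, and a shorter longest exon, with medians of 987 and 1490.5 bases. Over the 39 genes Spearman's rho with the log2 ratio over all cells was −0.01 for transcript length and 0.22 for the longest exon, against −0.07 and 0.03 over 12496 genes. These points share both libraries and their depth, and the values are given as a description.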

How the data were processed

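The authors deposited a matrix of whole UMI counts for genes and cells, and a second table with the library and cluster number of every cell. Named in the submitters' processing notes, without versions, are Cell Ranger, bcl2fastq and the build mm10. The filter on cells, the clustering, any doublet removal and the use of strand are not given in the sources used here, and no doublet caller was run. No cell exceeded a mitochondrial share of 20.0%.

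Counts were added up over the cells compared, separately in the libraries, and scaled by the total of those cells to CPM. Ratios have exact conditional binomial 95% intervals, CPM exact Poisson and cell shares exact Clopper-Pearson ones. A gene was measured at 50 UMIs over both libraries. Named were all 39 genes, with full values for those called over all cells or in cluster 3, for the 5 with the highest sums and for examples of each role. Of other lists up to 6 genes were named. The genes and lists were chosen with earlier results of these data known. Scripts were tested on simulated data. Python 3.11.15, numpy 2.4.6, scipy 1.17.1 and R 4.3.3 with edgeR 4.0.16, for TMM factors only, were used.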

Additional observations from a re-analysis of the deposited data

Results flagged for a closer look

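The summed level of the 39 genes differed in direction between clusters. The log2 ratio of KO over WT was 0.23 in cluster 0, 0.022 in cluster 3 and 0.55 in cluster 4, but −0.19 in cluster 1 and −0.55 in cluster 5, each with an interval that excludes 0. The cluster 3 value turned sign under other scalings (−0.053 with the reduced totals, −0.021 with TMM). Without G2/M-high cells cluster 1 was at −0.071 (−0.11 to −0.028). Cluster 5 was at −0.086 (−0.20 to 0.02) without its 5 WT and 4 KO cells of this kind, so its values rest on few cells. For 4 genes clusters were called in opposite directions. Cenpf had log2 ratios of 0.65 in cluster 0, 0.72 in cluster 2 and 0.63 in cluster 4, against −0.82 in cluster 5. Ccnb2 had −0.64 in cluster 1 and 0.69 in cluster 4. Hmmr had 0.92 in cluster 0 and 1.03 in cluster 4, against −0.86 in cluster 1. Cenpe had 1.16 in cluster 0, 0.64 in cluster 2 and 1.45 in cluster 4, against −0.89 in cluster 5. With 1 library per genotype these differences between clusters were not tested. Clusters of a library share its preparation and depth.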

How the results depend on the processing

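No paired analysis was possible because each genotype has 1 library, and for the same reason no library could be left out. Of the 8 genes called over all cells, Birc5, Cdca2, Tubb4b, Nusap1 and Kif11 kept their call under 13 of 15 alternatives, Mki67 under 10, and Bub1 and Ndc80 under 9. In cluster 3, Cdca2, Nusap1 and Kif11 kept it under 11 of 12, Mki67 under 10 and Tubb4b under 9. The 2-fold threshold left 0 higher and 0 lower in both sets, and no value of a called gene changed sign under any alternative. The summed log2 ratio over all cells, 0.023, became −0.047 with totals that leave out mitochondrial, ribosomal protein and haemoglobin genes, 0.056 with the TMM factor, 0.16 as a mean of per-cell CPM, 0.14 thinned, −0.099 in cells with Xist alone, 0.18 in cells with Y-linked UMIs alone, 0.012 in cells with at most 10% mitochondrial UMIs and −0.036 without clusters 0 and 6, an alternative chosen after seeing the data. In cluster 3 it was −0.053 with those totals, −0.021 with TMM, 0.0019 as a mean of per-cell CPM, −0.0094 thinned, −0.021 without cells that had UMIs of both kinds, −0.011 with Xist alone, −0.053 with Y-linked alone and 0.12 at most 10% mitochondrial. The median log2 ratio over all cells was 0.00096 as a mean of per-cell CPM, −0.26 with Xist alone and 0.034 with Y-linked alone. In cluster 3 it was −0.18 with the reduced totals, −0.21 thinned and 0.025 at most 10% mitochondrial. Counts over all cells were 2 lower as a mean of per-cell CPM, at most 10% mitochondrial and with at least 20 CPM in a library, 9 lower with equal weight for each cluster, 2 higher and 9 lower with Xist alone, 0 lower with Y-linked alone, and 2 higher without clusters 0 and 6. In cluster 3, 6 were lower with Xist alone and 1 higher with Y-linked alone. The G2/M-high shares were 23.7% in WT and 25.6% in KO at 3 UMIs, 9.48% and 8.55% at 8 UMIs, 15.1% and 19.9% with Y-linked alone, 21.4% and 21.2% at most 10% mitochondrial, and 17.0% in WT and 15.3% in KO with Xist alone. The summed log2 ratio in G2/M-high cells, −0.012, was 0.012 at 3 UMIs, −0.048 without cells with both kinds of UMI, 0.024 with Xist alone, −0.14 with Y-linked alone and 0.032 at most 10% mitochondrial. Without G2/M-high cells, an alternative chosen after seeing the data, the sum was −0.071 in cluster 1, 0.15 in cluster 2, 0.25 in cluster 3, 0.60 in cluster 4 and −0.086 in cluster 5. The cause of these moves was not tested. In cluster 5, 21 of the 39 genes had under 50 UMIs, so depth limits that cluster most.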
